A study of Mus musculus with 10 samples.

Results

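The clustered protocadherins are cell-surface adhesion proteins encoded by 3 neighbouring gene clusters, alpha, beta and gamma, and they were chosen here by symbol, as every protein-coding gene of the count tables that starts with Pcdha, Pcdhb or Pcdhg. This gave 57 members of 43629 listed genes, with 14 in the alpha, 22 in the beta and 21 in the gamma cluster. RNA was taken from the dorsal telencephalon, the embryonic tissue that forms the cerebral cortex, of C57BL/6 mouse embryos at E14.5. The 5 control samples carried 1 floxed copy of Dot1l and no Cre (Dot1l-cKO f/+). The 5 Dot1l-cKO samples carried Cre with 2 floxed copies (Dot1l-cKO f/f), so that Dot1l, which encodes a methyltransferase of histone H3 lysine 79, is deleted in cells that express Cre. Controls lacked Cre, so deletion of Dot1l and the presence of the Cre allele cannot be told apart in these groups.

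Each alpha and gamma isoform starts from its own promoter in front of a large variable exon, which codes for the extracellular cadherin repeats and the membrane span. That exon is spliced to constant exons that are shared by the whole cluster and code for a common intracellular end. Beta genes have a single coding exon and no constant exons. Single neurons switch on a few of these promoters, largely at random, with CTCF and cohesin bridging promoters and distant enhancers, and the resulting set of isoforms marks each cell so that its branches recognise and avoid each other. The C-type isoforms at the 3' ends of the alpha and gamma clusters (Pcdhac1, Pcdhac2, Pcdhgc3, Pcdhgc4 and Pcdhgc5) differ from the others in being expressed without this random choice. The comparison asks whether the isoforms of the 3 clusters differ in level between the genotypes in a tissue that holds progenitors and young neurons. In bulk tissue, fewer expressing cells and less RNA per cell cannot be told apart.

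The libraries held between 54202349 and 66556034 counts. Replicates 2 and 3 of both groups share the number 57 in the column names of the normalised tables. They had at most 0.492% of their counts in mitochondrial rRNA, against at least 5.79% in the other 6 samples. On these grounds they are treated as a library batch, although what the number stands for is not given. As a block, this batch was set against the other 6 samples pooled, although their numbers in the column names differ between replicates. The gene-level count of Dot1l was not lower on average in the knockout (log2 fold change 0.08, edgeR adjusted p = 0.864). Dot1l-cKO replicate 2 had 20.1 CPM, below all controls (31.4 to 41.5 CPM), while the other Dot1l-cKO samples had 39.6 to 51.7 CPM. The log2 fold change was -0.37 within the library batch and 0.34 within the other samples. The exon-level reads that would show the deletion were not analysed here. All 10 markers of dorsal telencephalon were detected, and their summed level was 1975 to 2099 CPM in control and 1883 to 2289 CPM in Dot1l-cKO. The summed level of 8 markers of ventral telencephalon and interneurons was 54.7 to 280 CPM in control and 5.36 to 81.7 CPM in Dot1l-cKO, with none of the 8 at 0 in every sample.

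All members lie on the plus strand of chromosome 18 in GRCm38. The alpha cluster runs from 36930184 to 37187661, the beta cluster from 37264938 to 37524479 and the gamma cluster from 37661793 to 37841873. Annotated alpha genes nearly all end at the same base, and so do gamma genes, because they share the constant exons. Reads in those shared exons were not assigned to any gene: 4 further genes of the locus without an exon of their own were at 0 counts in all samples. Values for alpha and gamma members therefore stand for the variable exons. The sequence of the unshared exons was 494 to 4606 bases long in alpha, 2588 to 8695 in beta and 1570 to 4614 in gamma. Between near-identical isoforms reads may be lost or misplaced, and up to 28.6% of the 50-base stretches of a member (Pcdha6) also occurred in another gene.

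Gamma isoforms were the most abundant. Compared per kb of unshared exon, the median level over members in controls was 3.55 CPM per kb in gamma, 0.84 in alpha and 0.872 in beta. Pcdhgc3, a C-type isoform, stood highest of all members at 32.6 ± 5.68 CPM per kb (SD, n = 5). Next came Pcdhgb6 at 9.96 ± 1.16 and Pcdhga11 at 9.78 ± 1.74, which did not differ beyond their spread. In the alpha cluster Pcdhac2, a C-type isoform as well, led with 3.88 ± 0.875 CPM per kb. In the beta cluster Pcdhb17 led with 2.11 ± 0.398 CPM per kb, followed by Pcdhb7 at 1.97 ± 0.383, within the spread of the first.

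**Figure D1:**
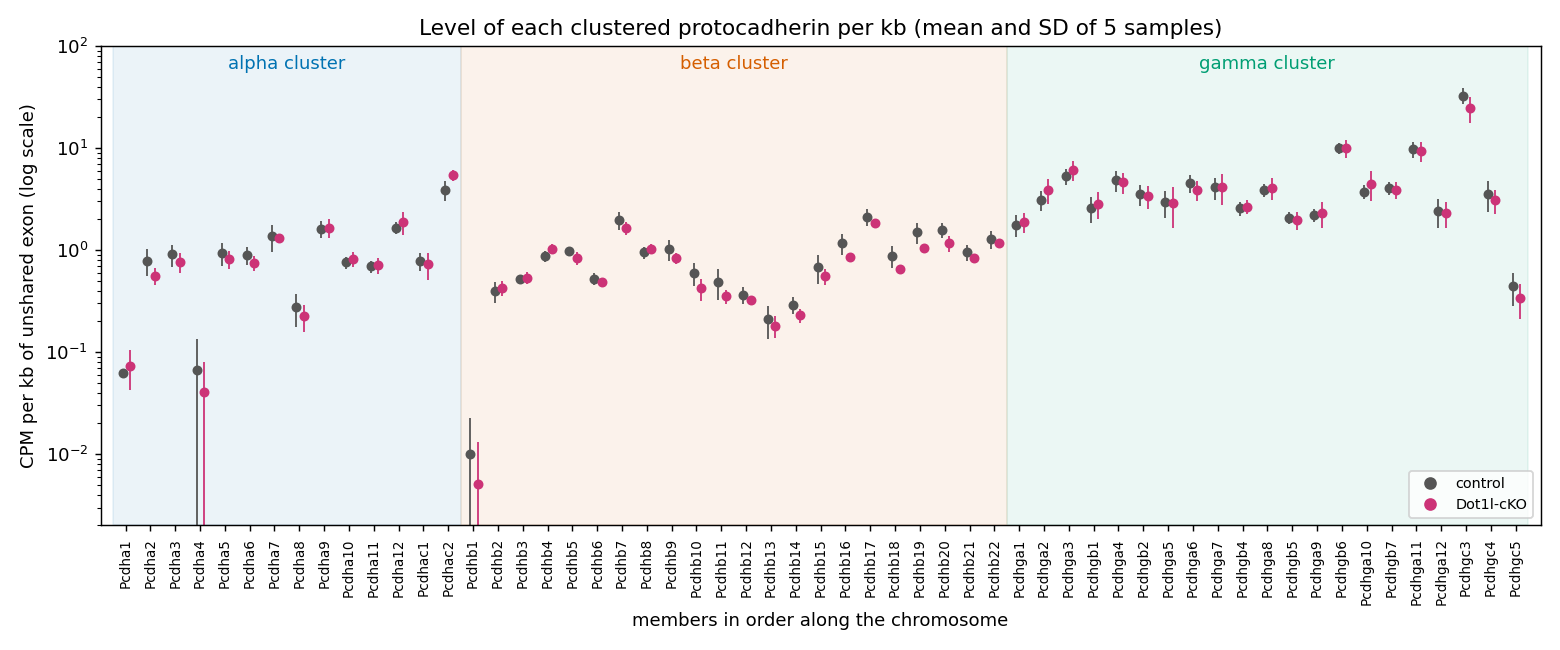
Mean level of each member in CPM per kb of unshared exon (log scale), in order along the chromosome, with the SD over 5 samples as bars for control and Dot1l-cKO; a bar that would reach 0 or less runs off the lower edge. Pcdhgc3 stands above all other members in both groups, and Pcdha1, Pcdha4 and Pcdhb1 lie near the bottom.

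Few reads were counted for 3 members. Pcdhb1, the first gene of the beta cluster, had 0 to 5 counts per sample and Pcdha1 had 4 to 15. Pcdha4 had 0 to 4 counts, but only 494 of its bases were not shared with an overlapping gene, which limits what could be counted for it. These 3 members did not pass the filter on low counts, which left 54 members for the test.

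No member was called by the main test. The edgeR quasi-likelihood test called 0 of 54 members higher and 0 lower at an adjusted p under 0.05, while it called 5.67% of all 17039 tested genes higher and 1.44% lower. At an unadjusted p under 0.05 there were 6 members (11.1%), against 20.6% of all genes. DESeq2, the tool of the study, called 2 members lower, Pcdhb16 and Pcdhb19, where it called 3.43% of all genes lower, and none higher. The 95% interval of the log2 fold change lay within a 2-fold change in either direction for 53 of 54 members, with Pcdhgc5 as the exception. Log2 fold changes (Dot1l-cKO over control) ranged from -0.50 to 0.48. Differences smaller than these intervals were not detectable with 5 samples per group.

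**Figure D2:**
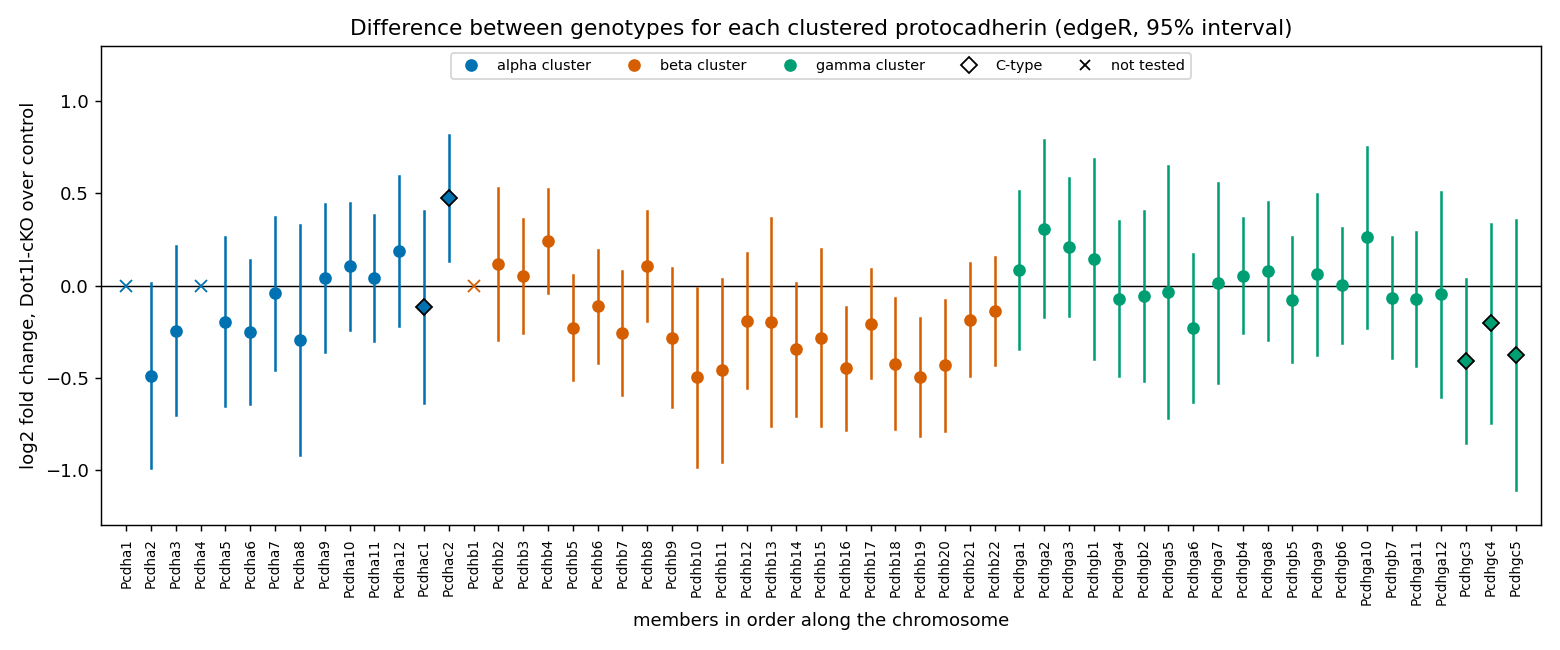
Log2 fold change of Dot1l-cKO over control for each member in order along the chromosome, with the edgeR 95% interval; diamonds are C-type isoforms and crosses are the 3 members that were not tested. All 14 beta members from Pcdhb9 to Pcdhb22 lie below 0, and the intervals of 5 of them end below 0, while the intervals of most alpha and gamma members span 0.

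The 3 clusters differed in where their members lay. In the beta cluster 17 of 21 tested members had a log2 fold change below 0, with a median of -0.23, against 51.2% of all genes below 0 and a median of -0.01 over all genes. In the alpha cluster 7 of 12 lay below 0, with a median of -0.08. In the gamma cluster 11 of 21 did, with a median of -0.03. Within the batch of replicates 2 and 3 the beta median was -0.09 and within the other 6 samples -0.32, and the alpha medians were 0.04 and -0.16. The gamma medians were -0.11 and 0.03. Members of a cluster share enhancers and samples and are not independent, so these counts carry no test.

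The summed level of the alpha cluster was 33.9, 39.2, 31.6, 42.5 and 48.5 CPM in controls, given throughout in the order of replicates 1 to 5. Among Dot1l-cKO samples it was 43.8, 36.1, 50.8, 44.1 and 39.3 CPM. The groups overlapped almost fully, with means of 39.2 ± 6.77 and 42.8 ± 5.59 (SD, n = 5 each). The beta cluster summed to 82.8, 79.8, 72.8, 73.4 and 110.1 CPM in controls. In Dot1l-cKO samples it summed to 69.5, 68.6, 68.6, 70.5 and 75.2 CPM. Beta sums were lower in the knockout than in the control of the same replicate number in all 5 pairs, with means of 83.8 ± 15.3 and 70.5 ± 2.78, and the groups overlapped only through Dot1l-cKO replicate 5. The mean log2 difference of the beta sums was -0.23, and -0.13 without control replicate 5. The gamma cluster summed to 331, 282, 256, 366 and 399.9 CPM in controls. In Dot1l-cKO samples it summed to 325, 188, 270.4, 357 and 365 CPM. In both groups replicates 2 and 3, the samples of the library batch, had the lowest gamma sums, and Dot1l-cKO replicate 2 was the lowest of all 10.

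**Figure D3:**
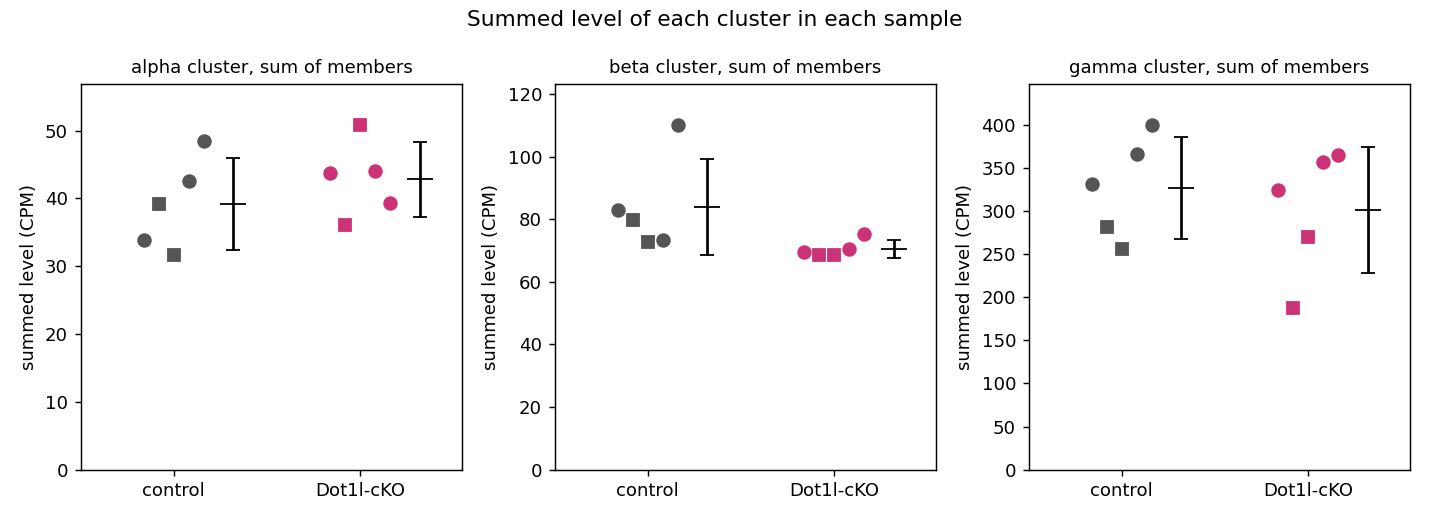
Summed level in CPM of the members of each cluster in each sample, with squares for replicates 2 and 3 (the library batch), circles for the others, and the mean with SD of 5 samples beside the points. Beta sums in Dot1l-cKO lie within 68.6 to 75.2 CPM while control replicate 5 stands apart at 110.1 CPM; alpha and gamma sums overlap.

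Extreme values gathered in a pair of libraries. Control replicate 5 had the highest value of all 10 samples for 17 of 21 beta members, 5 of 12 alpha members and 8 of 21 gamma members. Without it the beta median moved from -0.23 to -0.13, with 16 of 21 members below 0, the alpha median became 0.03 and the gamma median 0.07. Dot1l-cKO replicate 2 had the lowest value for 19 of 21 gamma members. Without it the gamma median became 0.12, with 4 of 21 members below 0, and the beta median was -0.21.

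Position within the beta cluster went with direction. From Pcdhb2 to Pcdhb8, 4 of 7 members lay above 0, and the highest was Pcdhb4 at 0.24 (95% interval -0.04 to 0.53). From Pcdhb9 to Pcdhb22 all 14 lay below 0, with a median of -0.31 and a range from -0.50 to -0.14. Of these 14, 12 were below 0 within the library batch of replicates 2 and 3 and 14 within the other samples, and 13 were below 0 without control replicate 5. This division was chosen after the values of these same samples were seen. The counts within subsets of them are therefore not separate evidence, and they carry no test.

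The 5 beta members with an unadjusted p under 0.05 (Pcdhb10, Pcdhb16, Pcdhb18, Pcdhb19 and Pcdhb20) were likewise named after their values were seen, and all lay lower in Dot1l-cKO. Pcdhb19 (ENSMUSG00000043313, 37496991 to 37504128) had 11.3, 10.2, 8.70, 8.39 and 14.46 CPM in the 5 controls, in order of replicate number. The Dot1l-cKO samples had 7.91, 7.98, 7.11, 7.25 and 7.38 CPM. Every knockout sample was below every control sample, the one member of 54 (8.34% of all tested genes) whose groups did not overlap. Its log2 fold change was -0.50 ± 0.15 (SE, edgeR adjusted p = 0.0679), a level 0.709 times that of controls. By DESeq2 it was called lower (adjusted p = 0.0101), and without control replicate 3 it was called lower by edgeR (adjusted p = 0.0421). Within the library batch the log2 fold change was -0.30 and within the other samples -0.60.

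Pcdhb16 (ENSMUSG00000047910, 37477814 to 37483038) had 5.61, 6.26, 5.43, 4.78 and 8.50 CPM in controls. In Dot1l-cKO samples it had 4.25, 4.23, 4.55, 4.90 and 4.48 CPM. The groups overlapped through control replicate 4 and Dot1l-cKO replicate 4 alone. Its log2 fold change was -0.45 ± 0.15 (edgeR adjusted p = 0.111, DESeq2 adjusted p = 0.0295). Pcdhb18, Pcdhb20 and Pcdhb10 had log2 fold changes of -0.42, -0.43 and -0.50, with edgeR adjusted p-values of 0.163, 0.152 and 0.233. Pcdhb17, the beta member with the highest level, had 10.1, 9.45, 8.97, 7.88 and 12.8 CPM in controls. In Dot1l-cKO samples it had 7.68, 9.37, 8.67, 7.69 and 9.28 CPM. Each knockout value was below the control of the same number, but the groups overlapped and the log2 fold change was -0.21 (95% interval -0.50 to 0.09).

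The C-type isoforms at the end of the alpha and gamma clusters did not lie on 1 side of 0. Pcdhac2 (ENSMUSG00000102697, 37143503 to 37187657) had 12.5, 9.96, 8.34, 12.7 and 15.2 CPM in controls. Knockout samples had 16.8, 13.8, 19.5, 15.9 and 15.7 CPM. It was higher in the knockout in all 5 pairs, and the groups overlapped only through control replicate 5, which was above Dot1l-cKO replicate 2. Its log2 fold change was 0.48 ± 0.16 (95% interval 0.13 to 0.82, edgeR adjusted p = 0.0989). It was called higher with the library batch as a block (adjusted p = 0.0490), where 7.49% of all genes were called higher, and without control replicate 5 (adjusted p = 0.0371). The log2 fold change was 0.88 within the library batch and 0.25 within the other samples, and the difference between these did not pass the test (edgeR interaction, adjusted p = 0.728, unadjusted p = 0.0250). Pcdhac1, its neighbour, had a log2 fold change of -0.12 (95% interval -0.64 to 0.40) with 1.47 to 2.42 CPM in control and 1.01 to 2.42 CPM in Dot1l-cKO.

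Pcdhgc3 (ENSMUSG00000102918, 37806364 to 37841873) is the gamma isoform that many neural cells express in common. It had 110.3, 91.3, 91.4, 124 and 134 CPM in controls. The level in Dot1l-cKO samples was 84.9, 46.1, 80.3, 91.9 and 112 CPM. It was lower in the knockout in all 5 pairs, but the groups overlapped, since Dot1l-cKO replicates 4 and 5 lay above the 2 lowest controls. Its log2 fold change was -0.41 ± 0.20 (95% interval -0.85 to 0.04, edgeR adjusted p = 0.287). With the replicate number as a block it was called lower (log2 fold change -0.45 ± 0.11, adjusted p = 0.0496), the one member of 54 so called, where 2.91% of all genes were called lower. With the library batch as the block in its place it was not called (adjusted p = 0.0826). The log2 fold change was -0.51 within the library batch and -0.35 within the other samples, and -0.26 without Dot1l-cKO replicate 2.

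The remaining C-type isoforms of the gamma cluster lay below 0 with wide intervals. Pcdhgc4, whose gene follows Pcdhgc3, had 7.68 to 18.6 CPM in control and 6.43 to 13.0 CPM in Dot1l-cKO. Its log2 fold change was -0.20 (95% interval -0.74 to 0.34). Pcdhgc5 had 1.00 to 2.84 CPM in control and 0.694 to 2.01 CPM in Dot1l-cKO. Its log2 fold change was -0.38 (95% interval -1.11 to 0.35).

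**Figure D4:**
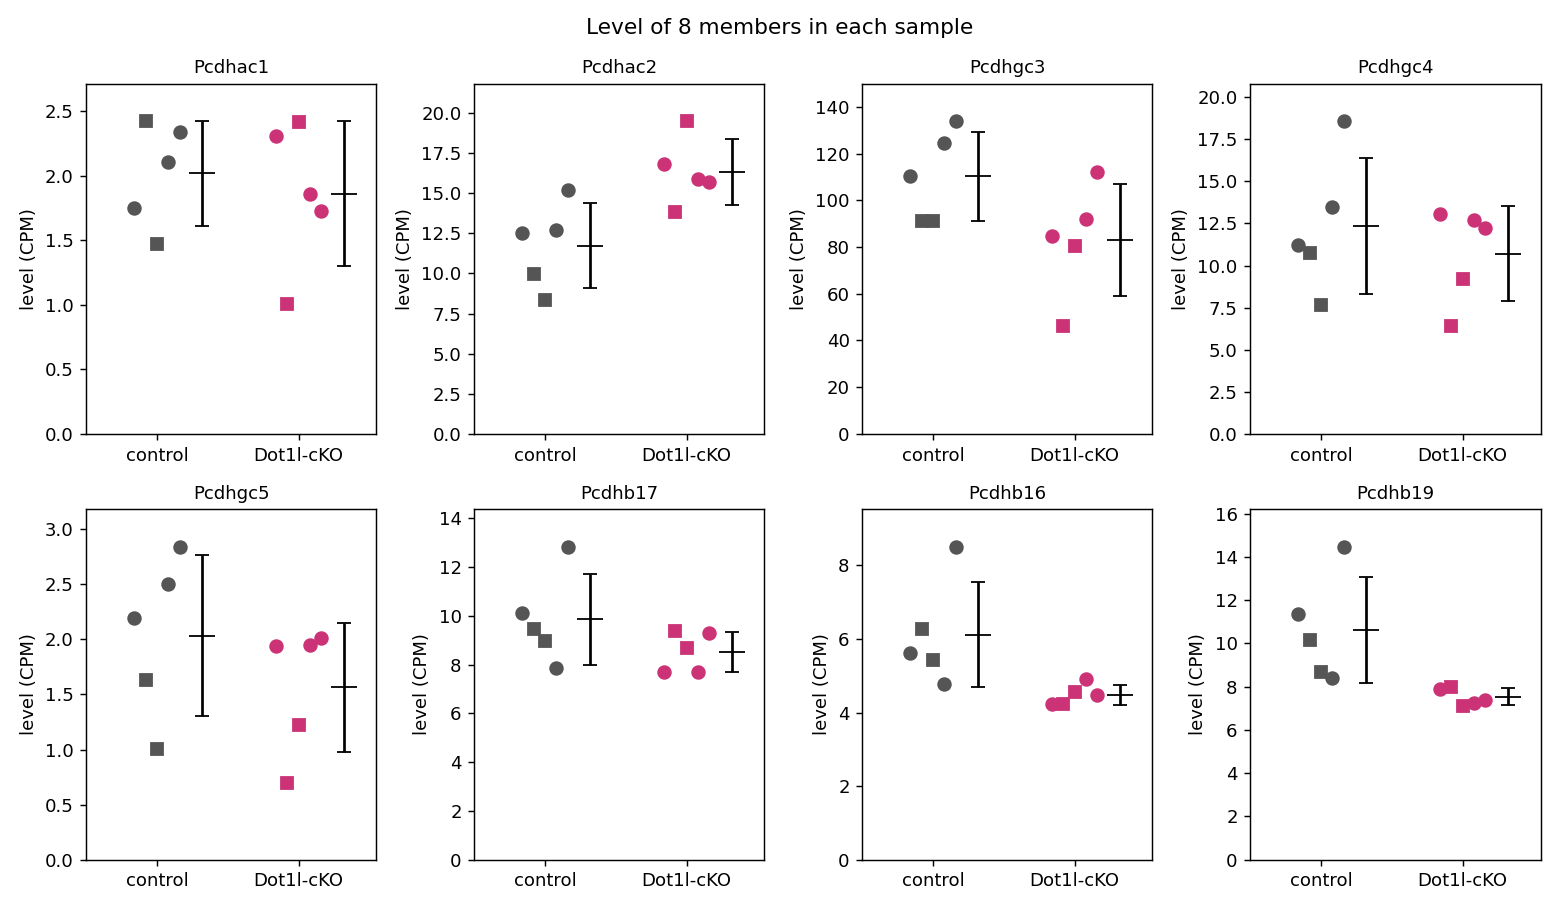
Level in CPM in each sample of the 5 C-type isoforms, of Pcdhb17 and of Pcdhb16 and Pcdhb19, with squares for replicates 2 and 3 (the library batch), circles for the others, and the mean with SD of 5 samples. Pcdhb19 is the member whose groups do not overlap, with 7.11 to 7.98 CPM in Dot1l-cKO against 8.39 to 14.46 CPM in control.

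Because Pcdhgc3 and Pcdhac2 hold large parts of their clusters, their shares of the cluster counts were also compared, which needs no scaling between libraries. These 2 shares were chosen after the values were seen, so they are described with no test. The C-type, alpha, beta and gamma shares of all member counts were also computed, and in each of these the groups overlapped. Pcdhgc3 made up 33.3, 32.4, 35.6, 34.0 and 33.5% of gamma counts in controls. Its share was 26.1, 24.6, 29.7, 25.8 and 30.8% in Dot1l-cKO samples. The groups did not overlap, with means of 33.8% ± 1.20 and 27.4% ± 2.69 (SD, n = 5 each). The other gamma members together summed to 217 ± 40.1 CPM in control and 218 ± 51.2 CPM in Dot1l-cKO.

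Pcdhac2 made up 36.9, 25.4, 26.3, 29.8 and 31.3% of alpha counts in controls. In Dot1l-cKO samples it made up 38.3, 38.4, 38.3, 36.0 and 39.9%. The share was higher in the knockout in all 5 pairs, and the groups overlapped through control replicate 1, whose pair differed least (means of 30.0% ± 4.56 and 38.2% ± 1.39, n = 5 each). The other alpha members together summed to 27.4 ± 4.93 CPM in control and 26.5 ± 3.65 CPM in Dot1l-cKO.

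**Figure D5:**
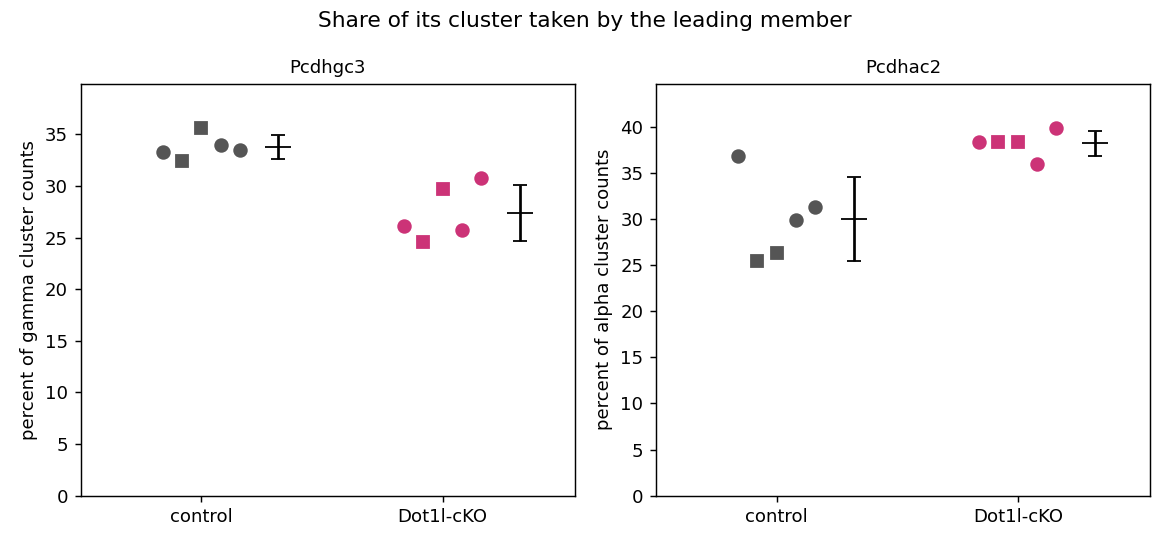
Percent of gamma cluster counts held by Pcdhgc3 and percent of alpha cluster counts held by Pcdhac2 in each sample, with squares for replicates 2 and 3 (the library batch), circles for the others, and the mean with SD of 5 samples. Pcdhgc3 lies at 24.6 to 30.8% in Dot1l-cKO against 32.4 to 35.6% in control, and Pcdhac2 lies at 36.0 to 39.9% against 25.4 to 36.9%.

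The isoforms of the alpha and gamma clusters that are chosen at random lay on both sides of 0. In the gamma cluster the 12 a-type isoforms had a median log2 fold change of 0.04, between -0.23 for Pcdhga6 and 0.31 for Pcdhga2. The 6 b-type isoforms had a median of -0.03, between -0.08 and 0.14. Pcdhgb6, the highest of them, had 22.1 to 29.9 CPM in control and 17.1 to 29.7 CPM in Dot1l-cKO (95% interval of the log2 fold change -0.31 to 0.32). The 10 tested alpha isoforms other than the C-types ranged from -0.49 for Pcdha2 to 0.19 for Pcdha12. None of these had an unadjusted p under 0.05. The clusters also differed in base composition, with 39.1 to 49.0% GC in beta members and 47.1 to 56.97% in alpha members and 48.9 to 56.8% in gamma members. With a GC-content offset in the fit the beta median was -0.24, the alpha median -0.13 and the gamma median -0.09.

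Genes that act on the clusters or beside them were compared in the same fit. Of 26 regulators of promoter choice (CTCF, cohesin and its loaders, DNA methylation and heterochromatin genes), edgeR called 0 higher and 0 lower. Their median log2 fold change was -0.19 and 25 of 26 lay below 0. An unadjusted p under 0.05 was found for 4 of them, against 20.6% of all genes. DESeq2 called Stag1, Pds5a and Setdb1 lower, where it called 3.43% of all genes lower. With the replicate block edgeR called Stag1 lower, where 2.91% of all genes were called lower. Of the 26, 1 was also called lower with a GC-content offset, with the library batch as a block and without control replicate 5. Of all 17039 tested genes, 408 were called lower with the GC-content offset and 514 with the library batch as a block. Without control replicate 5 it was 343 of 17214. Ctcf, whose product anchors the promoter loops, had a log2 fold change of -0.22 (edgeR adjusted p = 0.396). Setdb1 and Smchd1, which silence parts of the clusters, had -0.12 and -0.16 (adjusted p = 0.253 and 0.411). Of 26 genes for binding partners and signalling, only Nlgn1, a synaptic adhesion gene, was called, and it rose (log2 fold change 0.53 ± 0.13, adjusted p = 0.0326). That call was lost in 7 of 10 fits with a sample left out (control replicate 2, 3 or 4, or Dot1l-cKO replicate 1, 2, 4 or 5, adjusted p = 0.0546 to 0.0831).

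The non-clustered protocadherins, which lie outside the clusters as single genes and have no promoter choice, showed another picture. Of 12 such genes 5 were called higher and none lower by edgeR, where 5.67% of all tested genes were called higher and 1.44% lower. The median log2 fold change of the 12 was 0.39. Pcdh20 rose most, from 13.3 ± 2.3 to 40.3 ± 6.37 CPM (log2 fold change 1.604 ± 0.14, adjusted p = 1.53e-04). Pcdh7, Pcdh17 and Pcdh9 rose by 0.49, 0.64 and 0.58 on the log2 scale, with adjusted p-values of 0.00517, 0.00673 and 0.0142, and Pcdh15 by 0.44 (0.0302). The call of Pcdh15 was lost in 7 of 10 fits with a sample left out (control replicate 1, 2 or 4, or Dot1l-cKO replicate 1, 3, 4 or 5, adjusted p = 0.0534 to 0.0758). Of the 12 genes, 0 were called within the library batch of 4 samples and 3 within the other 6. Among all genes, 1 of 17202 was called within that batch and 745 of 17294 within the other samples. The 0 therefore says little about these 12 genes. Whether the 2 kinds of protocadherin differ was not tested. The 31 other protein-coding genes within 500 kb of the clusters or between them had a median of 0.01 over 26 tested, and only Hbegf, a growth factor gene, was called (0.49 ± 0.12, adjusted p = 0.0290, higher). That call was lost in 7 of 10 fits with a sample left out (control replicate 1, 2 or 3, or Dot1l-cKO replicate 1, 3, 4 or 5, adjusted p = 0.0510 to 0.0719).

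Markers of some other cell types moved with genotype, and their part in the values above was not tested. For comparison, edgeR called 5.67% of all tested genes higher and 1.44% lower, and 20.6% had an unadjusted p under 0.05. Of 12 markers of postmitotic neurons 1 was called higher and none lower, and their summed level was 3954 to 5955 CPM in control and 4720 to 5723 CPM in Dot1l-cKO. Of 8 radial glia markers 3 were called higher and 1 lower, with 5 of 8 below 0 and a median log2 fold change of -0.18. Their summed level was 2184 to 2699 CPM in control and 2857 to 3201 CPM in Dot1l-cKO, so the sum and the median differ in sign. Of 6 Cajal-Retzius markers 3 were called higher (403 to 621 CPM against 608 to 1179 CPM), and all 5 microglia markers were called higher (26.1 to 47.8 CPM against 52.2 to 82.2 CPM). Of 8 markers of ventral telencephalon and interneurons 7 were tested, all 7 lay below 0 with a median log2 fold change of -1.75, and 6 had an unadjusted p under 0.05. Of these, Lhx6 alone was called, and it was lower. Of 10 dorsal telencephalon markers 1 was called lower and none higher by edgeR. No marker of hem and choroid plexus, meninges, vessels or blood was called by edgeR or DESeq2, with none at an unadjusted p under 0.05. Hem and choroid plexus markers varied widely within groups, with sums of 4.21 to 636 CPM in control and 9.86 to 173 CPM in Dot1l-cKO. Meninges markers did too (24.7 to 852 CPM and 30.4 to 782 CPM). With such spread a difference between genotypes could have been missed.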

How the data were processed

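According to the labels, rRNA was depleted from total RNA for stranded libraries, and the authors trimmed the paired-end reads with Trim Galore 0.2.8, mapped them to mm10 with TopHat2 2.0.9 and assigned them to genes with HTSeq 0.6.0, per the submitters' processing notes. The deposited counts are whole numbers per gene and were used for all tests. The deposited normalised counts, a signal that the authors made by dividing counts by a DESeq2 1.6.1 size factor per sample, served as an alternative.

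Members were matched by gene ID to GENCODE M21 (GRCm38). That annotation gives the symbol Pcdha11 to 2 IDs, of which the upstream one is called Pcdha10 here from the RefSeq position. Pcdhgb8 is annotated as a polymorphic pseudogene and was not included. Genes were filtered with filterByExpr, scaled with TMM and tested with the edgeR 4.0.16 quasi-likelihood test in R 4.3.3, with Benjamini-Hochberg adjustment over all genes. CPM are TMM-scaled, and lengths per kb count exonic bases of no other gene on that strand. SE are approximate. The labels call the samples biological replicates but do not name the animals, so p-values measure the spread between these samples. Replicate pairs differed beyond sampling noise. The libraries held 54202349 to 66556034 counts. Precision comes from the 5 samples of each group.

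Same-numbered samples deviated together, with correlations of 0.131 to 0.597 for all 5 numbers, and the numbers were taken to pair the samples. The library batch, shared by the same numbers in both groups, can by itself give such correlations. In the column names of the normalised tables, replicates 1, 4 and 5 each share a number across the groups (51, 90 and 154). Replicates 2 and 3 all carry 57, so that number does not tell them apart. What these numbers stand for is not given. Only replicates 1 and 4 correlated best with their own replicate number, so the pairing, of replicates 2 and 3 above all, is an assumption. Named members are the C-types, the highest member of each cluster and called members, with others chosen after their values were seen. For other lists, genes with the 4 lowest adjusted p among those called, and Ctcf, Setdb1 and Smchd1, are named. Members and lists were chosen with earlier results of these data known. Alternatives were DESeq2 1.42.0, other normalisation, filters, replicate, batch, GC, Xist and surrogate variable (sva 3.50.0) terms, limma 3.58.1 on log2(normalised count + 1), adjusted p under 0.01 and leaving out each sample. The interaction of genotype and library batch was added after the data were seen. The GC offset used the longest transcript of each gene. The tests were tried on simulated data. Some details of the genotypes are not reported here.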

Additional observations from a re-analysis of the deposited data

Results flagged for a closer look

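Of 32 groups of 5 values examined for members and clusters named above, 2 held a sample far from the other 4. Chance alone gives about 1 such group in 20, so 2 of 32 is near that rate. The summed level of the beta cluster in control replicate 5 was 110.1 CPM, against 72.8 to 82.8 CPM in the other controls. Pcdhb20, a beta member, was at 7.31 CPM in control replicate 5, against 4.98 to 5.37 CPM in the other controls. Pcdhb20 is part of that sum, so these are not separate observations.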

How the results depend on the processing

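The count of members called higher was 0 in the fit reported and 1 with the library batch as a block (Pcdhac2, of the alpha cluster). The count called lower was 0, and it became 2 with DESeq2, 1 with the replicate block and 1 with the replicate block and a GC-content offset together (Pcdhgc3 in both). The blocked fit changed no other call of a member. Leaving out each sample in turn gave 0 to 1 member called higher (0 to 1 in the alpha cluster) and 0 to 1 called lower. In all genes the calls numbered 1212 in the fit reported, 2011 with DESeq2, 1604 with the replicate block, 750 to 1357 with a sample left out, 745 within the 6 samples outside the library batch and 1 within the batch of 4. The mean log2 difference of the summed alpha level was 0.14, and it was -0.085 when the median member was used in place of the sum. Without Pcdhac2 the log2 ratio of the group means of the alpha sum was -0.05, against 0.13 with it. The cause was not tested. Pcdhac1 had a log2 fold change of -0.12 and ranged from -0.23 to 0.039 when samples were left out. The gamma difference of -0.14 ranged from -0.22 to 0.02. All other named members kept their direction under all 24 alternatives that gave a value. Members with few counts could not be tested. Of the other lists, the calls of Nlgn1 and Hbegf were also lost with Xist as a covariate (adjusted p = 0.0653 and 0.0588), within the library batch (0.0983 and 0.235) and within the other samples (0.0561 and 0.142), and that of Hbegf with no low-count filter (0.0683). Pcdh15 was lost with Xist, within the library batch and within the other samples too (0.0633, 0.409 and 0.131), and Pcdh9 within the other samples (0.0539). No non-clustered protocadherin was called within the library batch. The number of them called higher was 4 with Xist or with no low-count filter, and 3 at an adjusted p under 0.01.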
